A study of Mus musculus with 4 samples.

Results

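In single-cell RNA profiles of sorted thymic regulatory T (Treg) cells, 84 of 8273 cells carried transcripts typical of double-positive thymocytes, the immature stage that bears both CD4 and CD8. A cell was counted as a member of this population when its unique molecular identifiers (UMIs, each counting 1 captured transcript) summed to 3 or more over Cd8a, Dntt, Arpp21, Aqp11 and Rag1. All 8189 other cells of the table were the comparison. The rule read measured values, so the levels of those 5 genes are given as a description only.

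Per the labels, the cells came from thymi of 3-week-old B6 mice, and all mice carried a Rag2-Gfp and a Foxp3-Thy1a reporter. There were 4 samples, namely an Il2 knockout (IL2 o/o), an Il15 knockout (IL15 o/o) and a wild type of each line (IL2 wt/wt and IL15 wt/wt). In these reporters GFP marks recent activity of Rag2 regulatory sequence, and Thy1.1 marks cells that express Foxp3, the transcription factor of Treg cells. The sort gate was CD4+CD8-Thy1.1+GFP+, and the sorted cells were captured with a droplet kit that reads the 3' ends of transcripts. The sources used here do not say how many mice stood behind a sample. Cell barcodes ended in 1 of 4 suffixes, taken as 4 libraries, and no label ties a suffix to a sample. The libraries therefore stayed unassigned, knockouts and wild types were not compared, and no p-value was computed, because cells of 1 library are not replicates. Il2 stood at 37.3, 30.4, 42.8 and 36.5 CPM (UMI counts scaled to a total of 1000000) in the other cells of libraries 1 to 4, and Il15 gave 1 UMI in members and 15 UMIs in other cells, so the 3' tags of the targeted genes check no label. Library totals ran from 5717732 to 11274713 UMIs. The median member had 2233.5 UMIs and 1187.5 genes, and the median other cell had 3147 UMIs and 1303 genes. No doublet caller was run. Of the 54 cells whose barcode sequence occurs in more than 1 library, 4 were members, and at no shared barcode were all the cells members.

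T cell precursors enter the thymus as double-negative cells, which lack CD4 and CD8 and rearrange the gene of the receptor beta chain. A beta chain that pairs with the pre-T alpha chain drives division and the step to the double-positive stage, in which the RAG recombinase rearranges the alpha chain and each receptor is tried on self peptides. Cells that receive a fitting signal switch the recombinase off, commit to CD4 or CD8, mature and leave the thymus. Treg cells arise among the CD4 cells after that signal.

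The label was checked against markers that the rule did not use. Of the 84 members, 82 had at least 1 UMI and 76 had at least 3 UMIs summed over Cd8b1, Rag2, Ptcra, Ly6d and Endou. Transcripts of a CD8 chain, Cd8a or Cd8b1, were found in 72 members, and 39 of these 72 (54.2%, exact 95% interval 42.0 to 66.0%) also had a Cd4 UMI, against 40.4% of other cells. Thinning each cell to 1811 UMIs leaves out shallower cells and kept 57 of the 84 members and 7390 other cells. Those shares were then 40.0% (18 of the 45 members with CD8 transcripts that were kept) and 23.2% (1714 of 7390). The gate of the sort left out cells with CD8 on their surface, and surface protein was not measured here. The remaining 12 members had no Cd8a, Cd8b1 or Cd4 UMI and go against the name double-positive; they are described by their leading genes near the end. A further 4 members, circled in the plot of each member, had 15 or more UMIs of 8 Treg markers.

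By the rule no other cell could hold more than 2 UMIs of the 5 rule genes, which fixes the direction of their difference. Dntt, which encodes the terminal transferase that adds untemplated nucleotides at receptor junctions, stood at 1127, 1089.7, 1167 and 1429.9 CPM in the members of libraries 1 to 4, against 1.78, 0.983, 2.68 and 1.21 CPM in the other cells. Rag1, a subunit of the recombinase, stood at 393, 237, 235 and 502 CPM in members, against 0.255, 0.268, 0.178 and 0.484 CPM in other cells. Cd8a, the CD8 alpha chain, stood at 970.1, 746, 914 and 1688 CPM in members and 5.60, 5.63, 4.46 and 5.44 CPM in other cells. All 3 genes were thus present in the members of each library, none of which lacked one of them. Arpp21, a phosphoprotein gene transcribed in immature thymocytes, reached 467 CPM in members and 2.22 CPM in other cells, and Aqp11, an aquaporin, 383 and 3.04 CPM. Single genes reached fewer members than the sum did, with a UMI of Dntt in 76, of Cd8a in 69, of Arpp21 in 62, of Aqp11 in 58 and of Rag1 in 48 of the 84 cells.

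Members made up 0.559% of library 1 (9 of 1609 cells, exact 95% interval 0.256 to 1.06%), 0.856% of library 2 (21 of 2452, 0.531 to 1.31%), 1.23% of library 3 (25 of 2037, 0.796 to 1.81%) and 1.33% of library 4 (29 of 2175, 0.895 to 1.91%). These intervals cover counting error only, and all 4 overlap each other. Members were shallower than other cells in the median of every library, with 2008 against 3861.5 UMIs in library 1, 2661 against 3648 in library 2, 1966 against 2504 in library 3 and 2228 against 3029 in library 4. Within the members depth spread from 919 to 15971 UMIs.

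**Figure D1:**
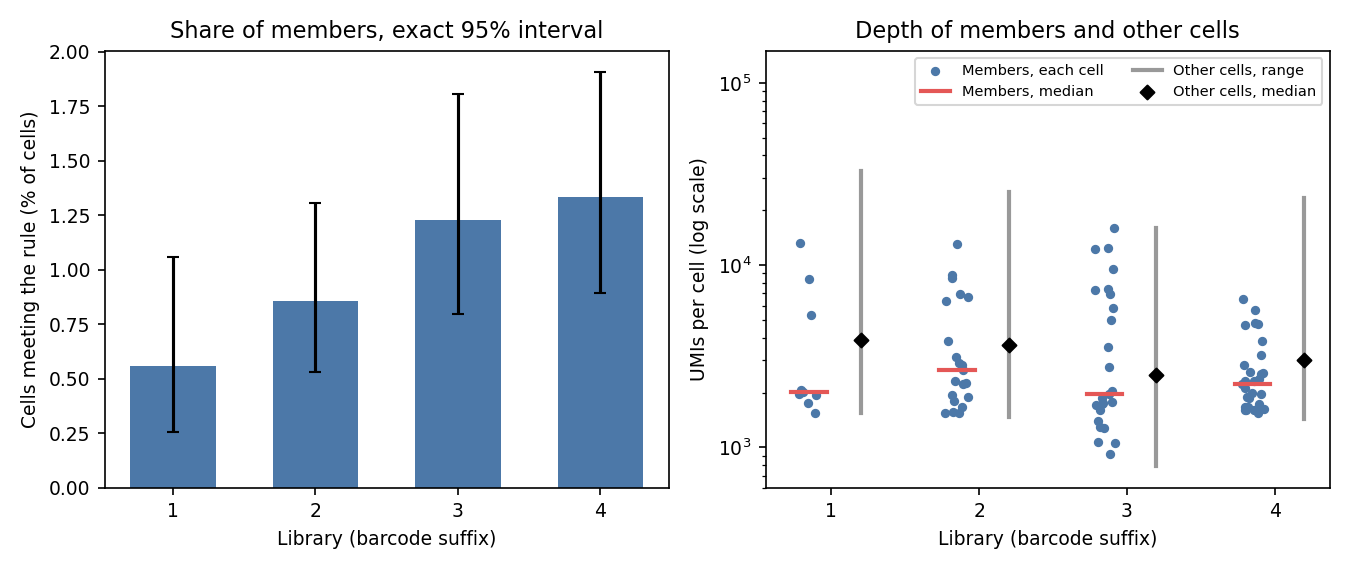
Left, share of cells that met the rule (percent of cells, bars, with exact 95% intervals that cover counting error) in each of the 4 libraries. Right, UMIs per cell on a log scale, with each member as a point, the members' median as a red line, and the range and median of other cells in grey and black; the members' median lies under that of other cells in all 4 libraries, and a few members of each library are deep.

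Few cells lay near the limit of the rule. Among other cells 7808 had no UMI of the rule genes, 352 had 1 and 29 had 2. Among members 5 had 3 UMIs, 2 had 4, 25 had 5 to 9 and 52 had 10 or more, with a median of 11 and a highest value of 38. Cd8b1, Rag2, Ptcra, Ly6d and Endou, 5 markers outside the rule, summed to 29.1, 29.5 and 65.2 CPM in cells with 0, 1 and 2 rule UMIs, to 283 CPM in the 7 cells with 3 or 4 (exact Poisson interval 146 to 494), to 4015 CPM in those with 5 to 9 and to 4494 CPM in those with 10 or more. The 8 Treg markers (Foxp3, Il2ra, Ikzf2, Ctla4, Tnfrsf18, Tnfrsf4, Gpr83 and Lrrc32) ran the other way, at 3523, 3201, 3060, 2073, 727 and 328 CPM over the same bins. Summed over the 7 members just inside the limit, both measures lay between those of cells with fewer and with more rule UMIs. The single cells differed, and 3 of the 4 members with 15 or more Treg marker UMIs were among them. These 3 had 23, 20 and 39 Treg marker UMIs and 1, 1 and 0 UMIs of the 5 markers outside the rule. The others had 3, 0, 2 and 1 Treg marker UMIs and 1, 0, 5 and 4 UMIs of the 5 markers. The 29 cells just outside the limit had Treg marker levels close to those of cells with no rule UMI.

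**Figure D2:**
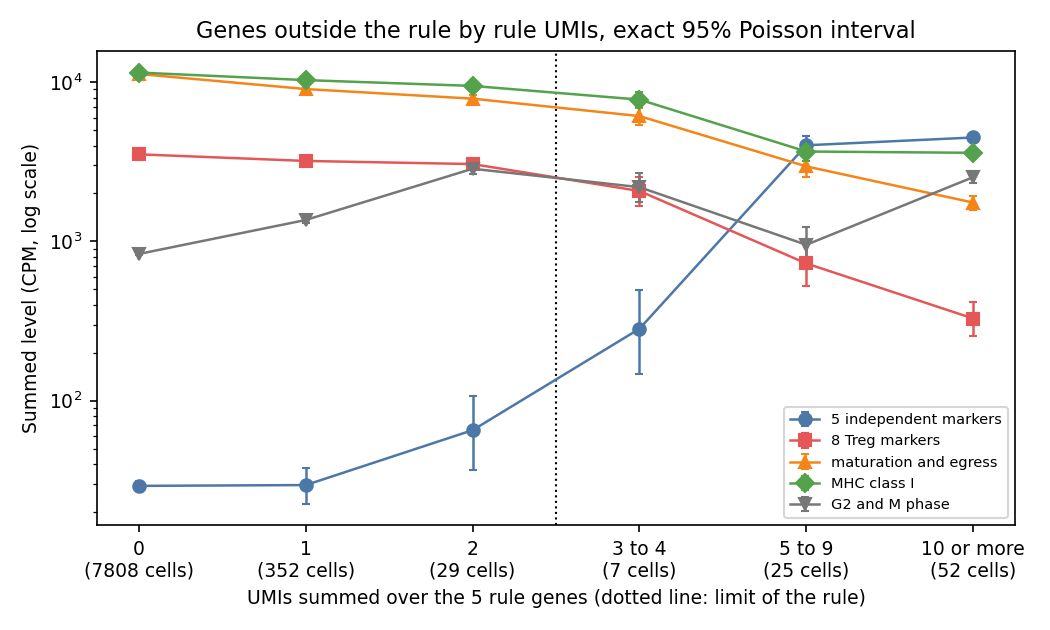
Summed level (CPM, log scale, exact 95% Poisson intervals) of 5 immature thymocyte markers that the rule does not use, 8 Treg markers and 3 gene lists, in cells grouped by their UMIs over the 5 rule genes; the dotted line is the limit of the rule. The immature markers are at 283 CPM in the 7 cells with 3 or 4 rule UMIs and at 4015 and 4494 CPM beyond, while Treg markers fall to 328 CPM in the last bin.

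Members and other cells were then compared over all genes by a Mantel-Haenszel ratio of their CPM with the libraries as strata (log2, members over other cells), with an approximate 95% counting interval in brackets where one is given. A gene was called when it had at least 200 UMIs over all cells, differed at least 2-fold and went the same way in libraries 2, 3 and 4, which held at least 20 members each. Of 8067 genes tested, 735 (9.11%) were called higher and 631 (7.82%) lower in members, with a median log2 ratio of 0.16 over all of them. That balance depends on scaling. Scaling by the median of ratios lowered each log2 ratio by 0.20 and gave 455 higher and 821 lower, and scaling by the trimmed mean of M-values lowered each by 0.37 and gave 302 higher and 1057 lower, so 53.8%, 35.7% and 22.2% of the calls were higher under the 3 scalings. Log2 ratios between 0 and 0.37 have no stated direction for that reason. In sorted single cells as here, a lower summed level can mean fewer expressing cells or fewer transcripts in each.

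Genes of the double-positive stage were mostly far higher in members. Of 11 such genes outside the rule that had enough UMIs to be called, 10 were called higher and none lower (median log2 ratio 3.00, against 0.16 over all genes tested). Over all 14 genes of the list with at least 50 UMIs the median was 3.48, but 3 of these, Rag2, Endou and Ptcra, reached 50 UMIs only through the members. Cd8b1, the CD8 beta chain, stood at 1075, 1089.7, 1185 and 2873 CPM in the members of libraries 1 to 4 and at 18.5, 20.5, 23.9 and 25.3 CPM in other cells, a log2 ratio of 6.02 (5.85 to 6.18). Ly6d, a small GPI-anchored surface protein, stood at 1416, 1173, 1519.8 and 1533 CPM in members and 4.33, 7.60, 9.63 and 5.92 CPM in other cells (7.28, 7.05 to 7.51). It was the called gene with the largest ratio, 155-fold, with a UMI in 76.2% of members and 1.76% of other cells (70.2% and 1.16% after thinning). Ccr9, the receptor for the thymic chemokine CCL25, stood at 498, 462, 425 and 824 CPM in members, against 34.8, 34.7, 61.3 and 42.4 CPM in other cells (3.52). Cd24a, a surface glycoprotein lost as thymocytes mature, was at 467 CPM in members and 30.8 CPM in other cells (3.91).

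Rag2, the partner of Rag1, gave 98 UMIs in 46 of the 84 members and 5 UMIs in the 8189 other cells. It thus had too few UMIs to be called, at 315 against 0.152 CPM. The same held for Endou, an endoribonuclease gene, with 123 UMIs in members and 10 in other cells, and for Ptcra, the pre-T alpha chain, with 42 and 14. Endou was found in 51 and Ptcra in 19 of the members. Themis, a signalling adaptor of positive selection, was higher at 151 against 25.0 CPM (2.40), and Mns1, Rmnd5a, Ets2, Tcf12 and Satb1 were called higher too. Cd1d1, which presents lipids and is found on double-positive cells, was at 29.0 CPM in members and 38.0 CPM in other cells and was not called (-0.41, -1.33 to 0.51).

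Cd4 itself was at 184, 94.8, 172 and 399 CPM in the members of libraries 1 to 4 and 139, 134, 160.3 and 145 CPM in other cells (0.51, 0.16 to 0.86). The members lay above the other cells in libraries 1, 3 and 4 and below them in library 2, and Cd4 was not called. Thy1, a surface protein of all thymocytes of which the sorted Thy1.1 is an allelic form, was 5.52-fold higher, at 918, 1054, 1303 and 1546 CPM in members and 273, 291, 133 and 258 CPM in other cells. The 3' tags do not tell the reporter from the native gene.

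The promoters of genes at the core of this signature are shown because the E proteins that act at this stage, encoded by Tcf3 and Tcf12, bind E boxes, and both of those genes were called higher in members. Each sequence is the RefSeq window from 250 bases before to 50 bases after the gene start in build GRCm38.p6, read 5′ to 3′ on the gene's strand, with every CANNTG in capitals; this motif reads the same on both strands. Rag1 lies on the minus strand at chr2:101649483-101649782 and Rag2 on the plus strand at chr2:101624462-101624761. Dntt lies on the plus strand at chr19:41029025-41029324, Cd8a on the plus strand at chr6:71373177-71373476 and Ptcra on the minus strand at chr17:46763663-46763962.
Rag1: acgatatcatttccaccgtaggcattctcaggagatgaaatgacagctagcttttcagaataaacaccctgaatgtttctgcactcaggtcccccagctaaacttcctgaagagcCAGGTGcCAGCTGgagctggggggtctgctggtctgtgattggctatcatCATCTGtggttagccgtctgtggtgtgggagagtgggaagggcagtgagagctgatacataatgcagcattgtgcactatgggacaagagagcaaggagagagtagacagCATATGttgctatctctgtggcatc
Rag2: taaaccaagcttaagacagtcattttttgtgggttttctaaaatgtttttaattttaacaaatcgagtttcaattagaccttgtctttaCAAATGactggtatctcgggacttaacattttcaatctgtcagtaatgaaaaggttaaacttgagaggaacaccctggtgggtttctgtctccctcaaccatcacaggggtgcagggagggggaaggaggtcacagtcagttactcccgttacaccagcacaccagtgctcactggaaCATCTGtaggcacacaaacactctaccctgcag
Dntt: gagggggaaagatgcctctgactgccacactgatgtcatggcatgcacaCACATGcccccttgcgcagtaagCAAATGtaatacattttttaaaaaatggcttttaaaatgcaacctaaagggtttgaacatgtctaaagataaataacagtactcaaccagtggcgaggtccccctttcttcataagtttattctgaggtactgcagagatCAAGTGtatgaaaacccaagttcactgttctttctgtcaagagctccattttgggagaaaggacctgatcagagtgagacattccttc
Cd8a: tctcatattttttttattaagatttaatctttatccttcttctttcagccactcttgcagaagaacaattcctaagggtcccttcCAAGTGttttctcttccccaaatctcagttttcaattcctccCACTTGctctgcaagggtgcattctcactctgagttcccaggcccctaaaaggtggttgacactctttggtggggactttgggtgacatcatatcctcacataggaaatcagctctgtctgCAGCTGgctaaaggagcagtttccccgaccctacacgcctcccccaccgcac
Ptcra: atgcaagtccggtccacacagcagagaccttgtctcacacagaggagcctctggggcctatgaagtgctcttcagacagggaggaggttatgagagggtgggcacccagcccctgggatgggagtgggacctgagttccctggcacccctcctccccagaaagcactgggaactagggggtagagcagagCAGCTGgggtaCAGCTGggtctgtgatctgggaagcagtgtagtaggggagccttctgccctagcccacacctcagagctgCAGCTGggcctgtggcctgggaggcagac
The motif occurred 4 times in the Rag1 window, 3 times each in those of Dntt, Cd8a and Ptcra and 2 times in that of Rag2. It is common at this length. At least 1 match was found in 64.0% of 803 promoter entries of genes called higher, in 65.7% of 667 entries of genes called lower, in 62.5% of 8237 entries of all tested genes and in 72.3% of all 32851 entries, and no test was run on these shares. A match is a description of letters and shows no binding.

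The CD8 genes sit together on chromosome 6 (GRCm38, GENCODE M21 annotation), and 4 neighbouring genes there were high in members. From left to right these are Cd8b1 (71322788 to 71337494, plus strand), the lincRNA Gm44175 (71354351 to 71360829, minus strand), Cd8a (71373427 to 71379173, plus strand) and Rmnd5a (71388634 to 71440637, minus strand), which encodes a subunit of the CTLH ubiquitin ligase. Gm44175 gave 22 UMIs in members and 7 in other cells, too few to be called, and Rmnd5a stood at 212 against 25.4 CPM (3.00). The genes on either flank were not called, with log2 ratios of 0.51 for Krcc1, -1.0 for Rnf103 and 0.29 for Chmp3. Whether reads of Rmnd5a or Gm44175 come from transcripts of the CD8 genes was not tested.

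Genes of V(D)J recombination beyond the recombinase moved unevenly. Of 13 such genes measured, 10 had enough UMIs to be called, and 4 were called higher and 1 lower. The median log2 ratio over the 13 was 0.69, and without library 4 it was -0.26 over 12 genes. Xrcc6, which encodes the DNA end-binding protein Ku70, stood at 393, 355, 389 and 425 CPM in the members of libraries 1 to 4 and 30.1, 31.7, 21.2 and 31.9 CPM in other cells (3.73, 3.45 to 4.01). Its partner Xrcc5 (Ku80) gave 5 UMIs in members and was not called (-0.42). Xrcc6 (chromosome 15, 81987835 to 82040085, plus strand) overlaps Desi1 (81992523 to 82033862, minus strand), which was also higher at 289.6 against 35.2 CPM (2.95). Their RefSeq promoter windows share 248 bases, and since the sources used here give no strand setting for the counting, reads of the overlapping genes may not be told apart. Hmgb1 and Hmgb2, chromatin proteins that bend DNA and act with the recombinase, were higher at 3128 against 777 CPM (2.08) and 2011 against 767 CPM (1.67); both are also abundant in dividing cells. Of the 625 Hmgb2 UMIs of the members, 522 came from the 17 members that had CD8 transcripts and 5 or more UMIs of G2 and M phase genes. Hmgb2 stood at 4758 CPM in those 17, 353 CPM in 55 non-cycling members and 731 CPM in 12 members without CD8 transcripts, against 767 CPM in other cells. Hmgb1 stood at 4940.3, 2487 and 1662 CPM in these classes, against 777 CPM. Lig4, the ligase that seals the joints, was higher at 45.1 against 6.44 CPM (2.54). Xrcc4, its cofactor, was called lower on 3 UMIs in members (-1.07). That call ended without library 1, at rule thresholds of 2, 4 and 5 UMIs and without Cd8a in the rule. It also ended without the 4 members that had 15 or more Treg marker UMIs.

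Transcription factors of early thymocytes were higher in part. Of 19 factors measured, 8 were called higher and 2 lower (median 0.68), and 5 higher under either other scaling. Tcf7 (TCF-1), a factor of T cell identity, stood at 1049, 1054, 1004 and 1649 CPM in the members of libraries 1 to 4 and 282, 255, 338 and 245 CPM in other cells (2.05). Satb1, a chromatin organiser of the double-positive stage, stood at 813, 876, 1058 and 1829 CPM in members and 339, 304, 607 and 378 CPM in other cells (1.43). Both were higher in members of every library, with the highest values in library 4. Myb, which sustains double-positive cells, was at 142 against 24.1 CPM (2.53), Tcf12 (HEB) at 196 against 44.6 CPM (1.99) and Ets2 at 126 against 23 CPM (2.27), and Tcf3, Sox4 and Nfatc3 were called higher as well. Ikzf3 (Aiolos) and Tox, a factor induced by positive selection, were the 2 called lower. Satb1, Tcf12 and Ets2 were also counted in the double-positive list, so the 2 lists are not separate.

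Among the 12 called genes with the largest ratios were also several with no place in the lists. Rnf157, a ubiquitin ligase gene, was at 116 against 5.56 CPM (3.98), Tm6sf1, a membrane protein of lysosomes, at 106 against 7.05 CPM (3.71) and Gtf2h4, a subunit of the repair and transcription factor TFIIH, at 216 against 17.6 CPM (3.60). Ntrk3, a neurotrophin receptor, was at 142 against 13.6 CPM (3.21) and Marcks, a membrane-bound kinase substrate, at 129 against 13.8 CPM (3.09). Plac8 was called on a narrower base. Its 157 UMIs in members came from 13 cells, it reached 200 UMIs only with them (90 in other cells), and it gave no UMI in the members of library 4, where its ratio was above 0 only through the 0.5 UMI added for the logarithm. Of the 735 genes called higher, 12 had no UMI in the members of at least 1 of libraries 2, 3 and 4, and 12 had fewer than 200 UMIs in other cells.

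Most genes of the receptor complex lay within 2-fold. Of 12 genes measured, none was called higher and 3 were called lower. Cd3e, Cd3d and Cd3g, the CD3 chains, were at 702, 1101 and 1603 CPM in members and 604, 1194 and 1216 CPM in other cells (log2 ratios 0.20, -0.18 and 0.37). Lck, the kinase that starts receptor signalling, was at 1194 against 719.9 CPM (0.69) and Lat, its adaptor target, at 978 against 618 CPM (0.57), neither past 2-fold. The 3 genes called lower encode receptors that modulate the signal. Cd2 was at 232 against 1199 CPM (-2.37), Cd5, whose level rises with receptor signalling, at 64.4 against 305 CPM (-2.26) and Cd6 at 154 against 324 CPM (-1.13). The receptor constant-region genes were not analysed here, nor was any gene of the gamma delta list, of which none reached 50 UMIs.

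Genes induced by positive selection were lower in members. Of 14 measured, 9 were called lower and none higher (median -1.33, or -0.96 with genes at 0 UMIs set at their bound). Cd53, a tetraspanin, stood at 209.7, 130.3, 63.3 and 64.4 CPM in the members of libraries 1 to 4 and 471, 450.5, 679 and 537 CPM in other cells (-2.45). Cd83, a surface protein that stabilises MHC class II, had no UMI in 84 members and stood at 68.8 CPM in other cells, at least 6.20-fold lower. For such a bound 3 UMIs over the group were put into the ratio stratified by library, so it can differ from a quotient of the CPM values printed here. Egr2 and Nr4a3, transcription factors switched on by receptor signals, also had no UMI in members, against 14.3 and 14.8 CPM in other cells, at least 1.41 and 1.55-fold lower. Nr4a1 was not called (-0.77), nor were Egr1, Id3, Gata3 and Nfkbid. The number of genes called lower was 5 after thinning to 1811 UMIs and 5 at a limit of 2 rule UMIs.

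Maturation and egress genes gave the most uniform difference of the lists. Of 18, 16 were called lower in members and none higher (median -2.22), and the number called lower stayed between 12 and 17 under each alternative run. Without library 3, 1 gene of the list was called higher. Ms4a4b, a membrane protein of mature T cells, stood at 78.7, 249, 127 and 116 CPM in the members of libraries 1 to 4 and 1429, 1522, 2176 and 1677 CPM in other cells (-3.54, -3.95 to -3.13). Ccr7, the receptor that guides mature cells to the medulla and lymph nodes, stood at 78.7, 82.9, 36.2 and 129 CPM in members and 617, 620.4, 829 and 540 CPM in other cells (-3.09). S1pr1, the receptor that leads cells out of the thymus, gave 7 UMIs in members and was at 22.5 against 189 CPM (-3.05). All 3 were lower in the members of each library. Gimap4, a GTPase gene of maturing T cells, was at 74.0 against 534 CPM (-3.02), and Klf2, which drives S1pr1, was called lower too (-2.83). Klf3 and Ly6c1 were the 2 not called.

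MHC class I genes, which double-positive thymocytes are known to express weakly, were lower for 9 of 15 and higher for none (median -1.65). H2-K1, a classical class I heavy chain, stood at 131, 426, 308 and 245 CPM in the members of libraries 1 to 4 and 1462, 1609, 1868 and 1645 CPM in other cells (-2.48, -2.77 to -2.19). H2-Q7 was at 19.3 against 166 CPM (-3.15) and H2-Q4 at 70.8 against 344 CPM (-2.43), although these near-identical genes may share reads. Nlrc5, the transactivator of class I genes, gave 1 UMI in members (-2.25, -4.56 to 0.06). H2-D1, B2m, Tap1, Tapbp and H2-M3 completed the genes called lower, so that heavy chains, light chain and peptide transport were among them. At a limit of 2 rule UMIs the number called lower was 4. Genes of the immunoproteasome, Psmb8, Psmb9 and Psmb10, were not called (-0.12, -0.30 and -0.64).

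Interferon response genes were lower for 10 of 20 and higher for none (median -1.09). Irf7, a regulator of interferon genes, was at 35.4 against 159 CPM (-2.25), Zbp1, a nucleic acid sensor, at 25.7 against 149 CPM (-2.63) and Irf9 at 32.2 against 123 CPM (-1.96). The list was uneven between libraries, with medians of -1.01, 0.05, -1.81 and -1.76 in libraries 1 to 4. The count of genes called lower was 6 when other cells were weighted to the depth of the members and 5 at a limit of 2 rule UMIs.

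Of the 12 called genes with the lowest fitted ratios, 10 had no UMI in members, so their place in that order rests on the 0.5 UMI added for the logarithm. Samhd1, a dNTP hydrolase, was the most abundant of the 12, at 22.5 against 392 CPM (-4.18, -5.21 to -3.14). Arhgap20, a GTPase-activating protein, and Tnfsf8, the ligand of CD30, had no UMI in members and were at 104 and 81.1 CPM in other cells, at least 12.8 and 9.19-fold lower. Gpr183, Gpr18, Ifit1bl1, Slfn5, Ephx1, Gm13546 and Nrp2 likewise had no UMI in members and were at least 2.65 to 3.64-fold lower.

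Treg transcripts were low in members but not absent. Of 17 identity genes measured, 12 were called lower and none higher (median -2.34, or -1.91 with genes at 0 UMIs set at their bound). Foxp3 had no UMI in members, against 14.4, 12.7, 14.1 and 12.9 CPM in the other cells of libraries 1 to 4, which is at least 1.38-fold lower. Tnfrsf4, the costimulatory receptor OX40, stood at 105, 82.9, 45.2 and 296 CPM in the members of libraries 1 to 4 and 1121, 1336, 786 and 1168 CPM in other cells (-3.08). Ikzf2, the factor Helios, stood at 131, 166, 90.5 and 399 CPM in members and 918, 939, 1060.2 and 957 CPM in other cells (-2.34). For both genes the members of library 4 were higher than those of the other libraries, and 2 of the 4 members with 15 or more Treg marker UMIs were in library 4. Tnfrsf18 (GITR) had a log2 ratio of -2.55, with 135 CPM in members and 847 CPM in other cells, Il2rb, the IL-2 receptor beta chain, one of -2.75 and Gpr83, a Treg surface receptor, one of -2.78. Il2ra, the IL-2 receptor alpha chain, was not called, at 109 against 149.9 CPM (-0.16, -0.64 to 0.33).

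At least 1 UMI of the 8 Treg markers was found in 50 of 84 members (59.5%, exact 95% interval 48.3 to 70.1%) and in 95.5% of other cells. After thinning to 1811 UMIs the shares were 50.9% (29 of 57 members) and 94.1%. The median member had 1 such UMI and the median other cell 10. Without thinning, such a UMI was found in 28 of the 55 non-cycling and 11 of the 17 cycling members with CD8 transcripts. It was found in 11 of the 12 members without, and 10 of these 12 had Il2ra, which also marks part of the double-negative stage. In these 12 cells Il2ra made up 283 of the 542 CPM summed over the 8 markers. No cell type that should lack these genes was at hand to set the level of free RNA, so its part was not tested. Without the 4 members that had 15 or more Treg marker UMIs, the median of the identity list was -3.09 and that of the egress list -2.54. Targets of IL-2 and STAT5 were lower for 7 of 15 and higher for 1, and lower for 2 at a limit of 2 rule UMIs. Osm had no UMI in members, Lta had 2, and Cish, a feedback inhibitor, was at 19.3 against 109 CPM (-2.25); Ccnd3, the D cyclin needed for thymocyte expansion, was higher (1.28) but not under the trimmed mean of M-values or without library 4.

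**Figure D3:**
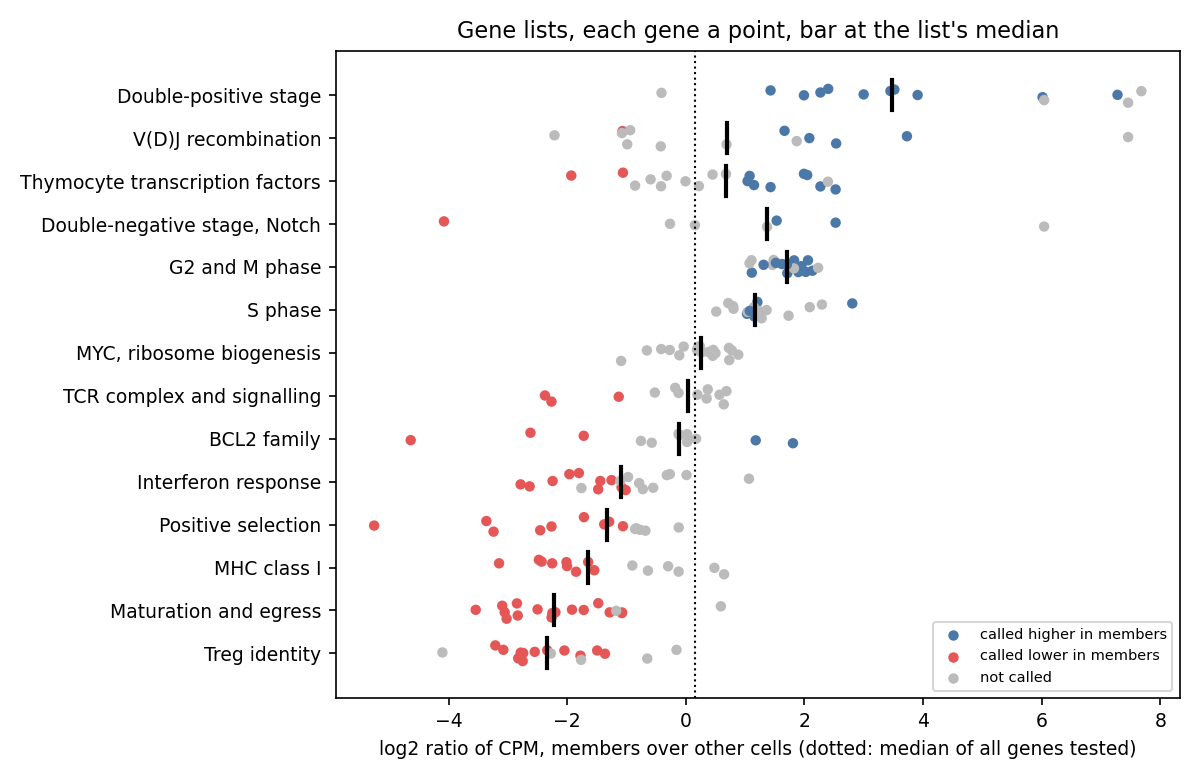
Log2 ratio of CPM, members over other cells, for each measured gene (points) of 14 lists, with the list's median as a bar and the median of all tested genes, 0.16, as a dotted line. Blue genes were called higher, red genes lower and grey genes neither; the double-positive list centres on 3.48 over 14 genes (3.00 over the 11 with enough UMIs to be called) and the egress and Treg lists on -2.22 and -2.34.

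Cell cycle genes were higher in members, unevenly between libraries. Of 18 G2 and M phase genes, 12 were called higher and none lower (median 1.71), with medians of -0.87, 0.45, 5.09 and 2.18 in libraries 1 to 4. The number called higher was 3 without the 4 members rich in Treg markers and 3 when Aqp11 was left out of the rule. Both of these runs left out the same cell of library 2, with 84 UMIs of the list and 20 Treg marker UMIs. The further cycling members of library 2 held 10 and 24 UMIs of the list. Against other cells weighted to the members' depth the number called higher was 6. It was 17 or 18 without library 2, at rule limits of 2, 4 and 5 UMIs, without Cd8a in the rule and over members with CD8 transcripts. Of 18 S phase genes 6 were called higher and none lower (median 1.16), and without library 3 the number was 1, with 1 called lower. It was 2 under the median of ratios, 1 under the trimmed mean of M-values, 1 against other cells weighted to the members' depth and 3 with totals free of mitochondrial and ribosomal protein genes. It was 9 to 14 without library 2, at rule limits of 2, 4 and 5 UMIs, without Cd8a in the rule and over members with CD8 transcripts. Kif23, a kinesin of cell division, stood at 0, 71.1, 63.3 and 167 CPM in the members of libraries 1 to 4 and 23.1, 26.0, 6.42 and 22.2 CPM in other cells (2.14). Cenpf, a kinetochore protein, stood at 52.4, 178, 72.4 and 180.4 CPM in members and 41.3, 47.5, 3.39 and 41.6 CPM in other cells (2.02), and Uhrf1, which maintains DNA methylation in S phase, at 161 against 26.6 CPM (2.81). In library 3 the other cells were low in all 3 genes. Cells with 5 or more UMIs over the G2 and M phase list made up 21.4% of members (18 of 84, exact interval 13.2 to 31.7%) and 6.45% of other cells. By library these shares were 11.1% against 8.19%, 14.3% against 10.2%, 24% against 0.249% and 27.6% against 6.66% in libraries 1 to 4, and only 3 members lay near the limit, with 3 to 7 such UMIs. Without all such cells, members and others alike, 12 of the 18 G2 and M phase genes were still measured and none was called. Kif11, a spindle kinesin of that list, had a log2 ratio of -0.28, against 2.06 with those cells. The cells were removed by their UMIs of this same list, so the loss of calls follows largely from the filter. It does not show whether the remaining members differ in the cell cycle. Of 12 histone genes 2 were called higher, Hist1h1b and Hist1h2bc, and replication-dependent histone genes are near-identical and may share reads.

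Genes of survival and growth differed in single cases. Bcl2, the survival factor of mature T cells, stood at 341, 142, 199 and 129 CPM in the members of libraries 1 to 4 and 563, 642, 590.3 and 619.6 CPM in other cells (-1.72). Bcl2l1, which encodes Bcl-xL, the survival factor of double-positive cells, was higher (1.18), though not under the other 2 scalings. Bid, a death factor, was higher at 57.9 against 16.7 CPM (1.81), and Bcl2a1d and Bcl2a1b were lower with 1 and 7 UMIs in members, although these near-identical copies may share reads. Over the 12 BCL2 family genes measured, 2 were called higher and 3 lower. None of 20 MYC and ribosome biogenesis genes was called (median 0.26), and of 15 glycolysis genes only Slc2a1 and Slc2a3, glucose transporters, were called, both lower. Of 10 immediate early and stress genes only Dusp1 was called, lower (-1.03), and of 13 mitochondrial genes only mt-Nd6, lower. The median share of mitochondrial UMIs was 2.53% in members and 2.27% in other cells.

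Within the members 3 classes stood apart, which were drawn after the values were seen, as were the genes named for them. In 55 members with CD8 transcripts, fewer than 5 UMIs of the G2 and M phase list were found, and these cells had a median of 1859 UMIs. In 17 further members with CD8 transcripts there were 5 or more, and their median was 5806 UMIs. The remaining 12 had no CD8 transcript and had a median of 6642 UMIs, the deepest of the 3 classes. The 3 classes numbered 6, 1 and 2 cells in library 1, 12, 3 and 6 in library 2, 16, 5 and 4 in library 3, and 21, 8 and 0 in library 4.

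The 55 cells with CD8 transcripts outside the cycle carried the fullest double-positive pattern. Cd8b1 was at 3072 CPM in them, 1185 CPM in the 17 cycling cells and 21.8 CPM in cells outside the population. Ccr9 was at 1170.3, 219 and 41.2 CPM over the same groups. Both genes were lower in the cycling than in the other CD8-bearing members. Each of these 2 classes held 2 of the 4 members rich in Treg markers. In the cycling class those had 13167 and 8476 of its 109709 UMIs and gave 1 and 0 Cd8b1 UMIs. Levels of the classes without them were not computed. Rag2 was at 419 CPM (exact Poisson interval 307 to 559) in cycling and 370 CPM (268 to 498) in non-cycling cells, and these intervals overlapped. Genes high in the cycling cells were those of division, with Top2a at 766 CPM and Rrm2 at 766 CPM, against 0 and 8.61 CPM in the non-cycling cells, which is how the class was drawn. Of non-cycling cells 30 of 55 had a Cd4 UMI and of cycling cells 9 of 17. Genes higher in the non-cycling cells included Rasgrp1, Tubb2b and Emb, with Rasgrp1, an activator of Ras after receptor signals, at 275 CPM in non-cycling and 18.2 CPM in cycling cells.

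The 12 members without a CD8 transcript met the rule through Dntt, Arpp21, Aqp11 and Rag1, since Cd8a is at 0 in them by definition, and carried further genes that are known from the double-negative and pre-T cell stages. Plac8 gave 149 UMIs in 11 of the 12 cells, with up to 53 in 1 cell, and stood at 1757 CPM, against 35.4 CPM in the 72 members with CD8 transcripts and 2.73 CPM in other cells. Ptcra stood at 318 CPM, against 66.4 and 0.425 CPM in those groups. Ptcra UMIs came from 7 of the 12 cells. Hes1, a target of Notch, gave 29 UMIs in 8 cells (342 CPM, against 26.6 and 0.395 CPM), and Il2ra, which marks part of the double-negative stage as well as Treg cells, gave 24 UMIs in 10 cells (283 CPM, against 44.3 and 149.9 CPM). Myl10, a myosin light chain gene, was at 542 CPM and Cdk6, a cell cycle kinase, at 578 CPM, against 13.3 and 31.0 CPM in members with CD8 transcripts. Plac8, Myl10, Cdk6, Il2ra and Hes1 were thus each found in 8 to 11 of the 12 cells.

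Other genes of immature thymocytes went both ways in the same 12 cells. Cd4, Bcl2l1 and Rmnd5a had no UMI there, where 3 UMIs would be 35.4 CPM, and stood at 288, 164 and 292 CPM in members with CD8 transcripts. Satb1 was at 153 against 1554 CPM and Endou at 70.7 against 518 CPM. Ly6d was at 1627 against 1337 CPM and Cd24a at 578 against 425 CPM, so that these stood above the members with CD8 transcripts, as Ptcra did. One of the 12 cells, in library 2, met the rule through 3 Dntt UMIs alone and also held 30 Plac8, 5 Cpa3 and 66 Hbb-bt UMIs, which were all of the Hbb-bt UMIs of the members. Treg markers were not high in the 12 cells, at 542 CPM summed over the 8 genes, against 3499.7 CPM in cells outside the population. Of 7 genes measured on the list of double-negative and Notch genes, 2 were called higher over all members (Myb and Notch1) and 1 lower (Cd44, at 0 UMIs in members), with a median log2 ratio of 1.37. The median was -0.91 over members with CD8 transcripts and -0.50 without library 2, which held 6 of the 12 cells, but over 6 and 5 genes, since others, Ptcra among them, then fell under 50 UMIs. With all 7 genes measured it was -0.16 at a rule limit of 4 UMIs and also without Dntt in the rule, so it has no stable sign.

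**Figure D4:**
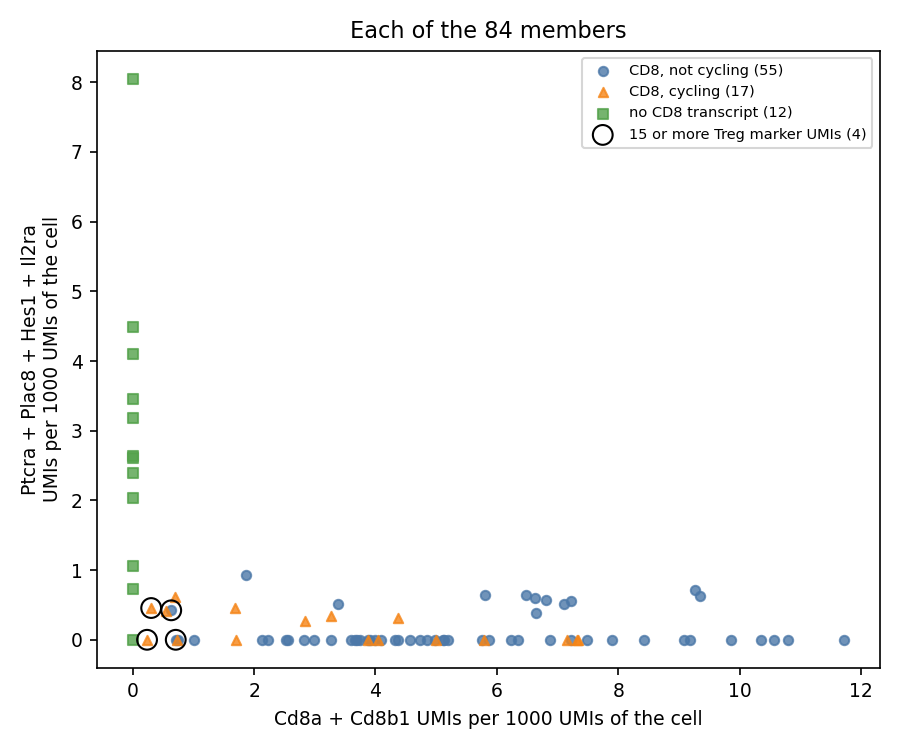
Each member by its Cd8a and Cd8b1 UMIs (horizontal) and its Ptcra, Plac8, Hes1 and Il2ra UMIs (vertical), both per 1000 UMIs of the cell, coloured by class; circles mark the 4 members with 15 or more Treg marker UMIs. The 12 cells without CD8 transcripts lie on the vertical axis, most of them above 1, and all cells with CD8 transcripts lie under 1 on that axis.

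**Figure D5:**
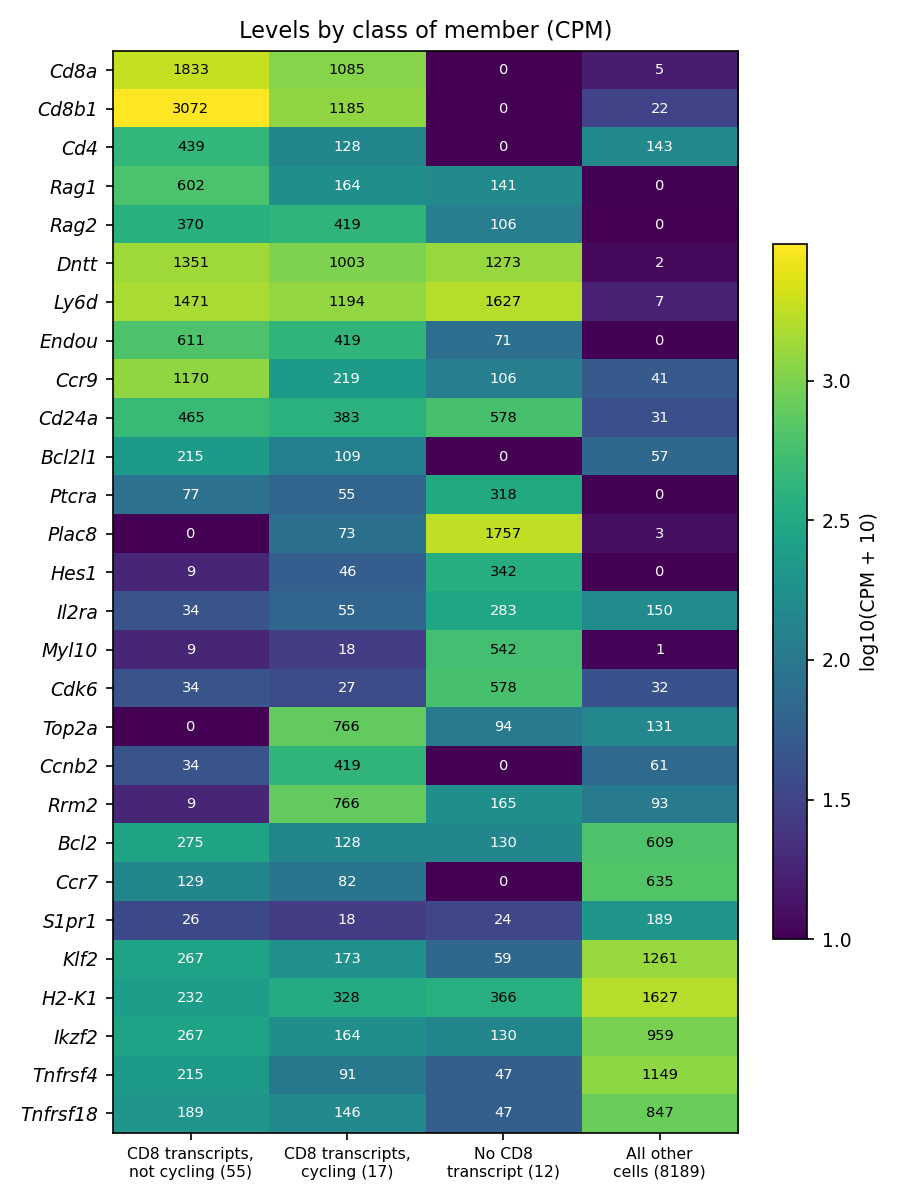
Level (CPM, printed in each cell; colour is log10 of CPM + 10) of selected genes in the 3 classes of members and in all other cells, with the number of cells in brackets. Cd8a and Cd8b1 are at 0 in the 12 cells of the third class by its definition, Plac8, Myl10, Cdk6 and Ptcra are highest there, and Bcl2, Ccr7, H2-K1, Ikzf2, Tnfrsf4 and Tnfrsf18 are highest in other cells.

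Few genes of the lists of further cell types reached 50 UMIs. Of 6 B cell genes 2 were measured, with Cd79a at 0 UMIs in members and Cd79b at 51.5 against 13.2 CPM, called higher (2.01). The B cell list summed to 27.1 to 90.2 CPM in the members of single libraries and 10.5 to 21.1 CPM in other cells. Of 12 myeloid and dendritic genes 2 were measured, Cst3, not called, and Cd74, lower at 12.9 against 71.5 CPM (-2.55), and the list summed to 157 to 332 CPM in members and 193 to 241 CPM in other cells. Of 10 thymic epithelial genes 4 were measured, with Krt18 and Ly75 at 0 UMIs in members and Ctsl, a lysosomal protease, higher at 122 against 17.7 CPM (2.69), and the list summed to 71.1 to 210 CPM in members and 38.2 to 46.7 CPM in other cells. Of 7 erythroid genes 4 were measured and none called, and in other cells Hbb-bs stood at 0, 0, 961 and 0.363 CPM in libraries 1 to 4, that is in library 3 almost alone. Of 10 CD8 single-positive genes Cd8b1 was called higher and Ctsw and Cd160 lower, and of 7 CD4 lineage genes Myb was called higher and Zbtb7b (ThPOK), Tox and Izumo1r lower. Of 10 innate and natural killer genes 3 were measured and Xcl1 was called lower, with no UMI in members. The innate list summed to 206 to 509 CPM in members and 45.5 to 221 CPM in other cells. No UMI was found in members for 4 of the 6 B cell, 7 of the 12 myeloid and dendritic, 8 of the 10 epithelial, 5 of the 7 erythroid and 6 of the 10 innate genes. Of the defining markers among these, Pax5, Csf1r, Itgax, Siglech, Krt14, Foxn1 and Ncr1 had no UMI in other cells either, Lyz2 and Krt5 had 1 and Alas2 had 26. Ebf1 gave 2 UMIs, Itgam 1 and H2-Ab1 3 in members, and the 66 Hbb-bt UMIs came from 1 cell. What part cells of these types have in the levels of the members was not tested.

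The authors' second table, of normalized values for 7231 cells, held 64 of the 84 members (76.2%, exact 95% interval 65.7 to 84.8%) and 87.5% of other cells (86.8 to 88.2%). Its share differed by class, with 51 of 55 non-cycling and 3 of 17 cycling members that had CD8 transcripts, and 10 of 12 members without. Its name carries the term G1, and how its cells were chosen was not tested. All 5 rule genes are among its genes.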

How the data were processed

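Single-cell UMI counts of sorted thymic Treg cells were analysed. Build mm10 and the tools R 3.4.1, Cell Ranger 2.0.2 and CASAVA 2.20 are named, per the submitters' processing notes. The deposited count table holds whole UMI counts for 27998 genes and 8273 cells, and the authors' second table holds normalized values on a log2 scale for 9571 genes and 7231 cells, which served only to see which members it keeps. Library totals of 5717732 to 11274713 UMIs set the precision.

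CPM was summed over cells of a library, and members were set against other cells by Mantel-Haenszel ratios over the 4 unassigned libraries, with 0.5 UMI added for the logarithm. Samples could not be compared, so no p-value is given, and intervals and floors of 3 UMIs cover counting error only. No cell was filtered and no doublet caller was run; whether members include doublets was not tested. The text names the rule genes, the 12 called genes with the largest ratio in each direction and genes of 27 lists. The members and lists were chosen with earlier results of these data known. Lists were measured at 50 UMIs or more; 11 listed genes, receptor and immunoglobulin constant regions among them, are not analysed here. On simulated counts 36.0% of genes changed 2-fold, 86.0% changed 4-fold and 94.0% changed 8-fold were called, and 3.84% of unchanged ones. These counts were summed per library with Poisson error only and held no variation between cells. The shares therefore cover counting error only and can differ for the real members, whose depth and content vary. Alternatives covered the rule, scaling, thinning, filters and leaving out each library. Promoters came from RefSeq (GRCm38.p6) and gene positions from GENCODE M21; Cd8b1, Ly6d and Endou were not matched. Python 3.11.15, numpy 2.4.6, scipy 1.17.1 and pandas 2.3.3 were used, and figures were drawn with matplotlib 3.10.9.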

Additional observations from a re-analysis of the deposited data

How the results depend on the processing

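No paired analysis was possible because the samples share only the replicate number 1, the libraries are tied to no sample and no result comes from a test. With 84 members of a median of 2233.5 UMIs, single genes with few UMIs are limited by depth. A limit of 2 rule UMIs gave 428 genes called higher and 282 lower, list medians of 2.87 (double-positive), -0.74 (positive selection), -1.18 (egress), -1.08 (Treg identity) and -0.84 (MHC class I), and 20 members without CD8 transcripts. Limits of 4 and 5 UMIs gave medians of -0.16 and -0.14 for the double-negative list, which is a change of sign, -1.94 and -1.96 for positive selection, and, at 5 UMIs, -2.44 for egress and -3.03 for Treg identity. When cells were thinned to 1811 UMIs before the rule was applied, 45 cells met it. When members and others were thinned after it, 57 of 84 members were kept, with medians of 3.03 (double-positive), 0.12 (double-negative, 5 genes), -0.84 (positive selection) and -1.88 (Treg identity). The median of ratios gave 455 genes called higher, and the trimmed mean of M-values 302 higher and 1057 lower, with medians of -1.70 (positive selection), -2.59 (egress) and -2.71 (Treg identity) and, for MYC genes, -0.11. Genes called higher numbered 1193 at 50 UMIs, 255 at 1000 UMIs (with 363 lower), 1888 with no minimum, 1567 at a fold of 1.5 and 212 at a fold of 3 (with 418 lower). Without cycling cells the medians were -1.10 (positive selection) and -1.96 (egress), and Kif11, a gene of the list by which those cells were removed, turned to -0.28. Without the 4 members rich in Treg markers they were -1.68 (positive selection), -2.54 (egress) and -3.09 (Treg identity), and over members with CD8 transcripts -0.91 (double-negative, 6 genes) and -1.99 (egress). In each run only libraries with at least 20 members counted for the direction of a call. Library 2 held fewer at limits of 4 and 5 UMIs, without Cd8a in the rule and over members with CD8 transcripts. After thinning and without cycling cells only library 4 counted. The cause of these changes was not tested.

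Leaving out each library in turn left 55 to 75 members, 691 to 815 genes called higher, 640 to 821 lower, 6 to 12 members without CD8 transcripts, 18.2 to 23.8% cycling members and 56.4 to 64.4% of members with a Treg marker UMI. List medians ran from -0.50 (without library 2) to 1.09 for the double-negative list (5 or 6 of its 7 genes), 1.08 to 2.12 for G2 and M phase, 0.36 to 1.58 for S phase, 2.79 to 3.48 for the double-positive list, -1.44 to -0.59 for interferon response, -2.44 to -1.82 for egress, -1.76 to -1.14 for MHC class I, -0.10 to 0.45 for MYC, -1.57 to -1.21 for positive selection, 0.59 to 1.00 for transcription factors, -2.72 to -2.13 for Treg identity and -0.26 to 0.82 for V(D)J genes. Of 3404 gene values over 148 genes and 23 alternatives, 2942 moved by no more than the half-width of the gene's main counting interval and 461 moved further. For 1 value, of a called gene, the sign changed. Changes of sign were looked for only in genes called in the main run, and the side of the 2-fold threshold was not followed.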

Other observations

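Gzma, which encodes a serine protease of cytotoxic granules, gave 65 UMIs in 23 of the 84 members and 65 UMIs in 28 of the 8189 other cells, at 52.4, 308, 190 and 206 CPM in the members of libraries 1 to 4, against 4.84, 0.447, 2.50 and 0.967 CPM in other cells. It was found in all 3 classes of members, at 138 CPM in the 55 non-cycling and 191 CPM in the 17 cycling cells with CD8 transcripts and at 330.1 CPM in the 12 cells without. Nkg7, another gene of cytotoxic granules, was not called (-0.41). Slc7a11, the cystine transporter, gave 47 UMIs in 21 of the 55 non-cycling members, 10 in the 17 cycling ones, 0 in the 12 without CD8 transcripts and 2 in the 8189 other cells. Cdkn1a, the cell cycle inhibitor p21, gave 13 UMIs in members and 37 in other cells. All of these genes but Nkg7 had under 200 UMIs and could not be called. Gzma, Slc7a11 and Cdkn1a were chosen after their values were seen.

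Outside the members, 35 of the 8189 other cells had 3 or more UMIs over the 5 immature markers that the rule does not use. The rule therefore does not hold every cell with such transcripts.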
